A study of Mus musculus with 2 samples.

Results

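The genes described here encode chemokines, interleukins and the related cytokines *Csf1*, *Csf2*, *Csf3*, *Lif*, *Tslp* and *Tnf*. They were found by symbol, as names of Ccl, Cxcl or Il followed by a number and at most 1 further letter, together with *Cx3cl1* and the named cytokines. Of 23183 genes with a value, 81 matched. *Il7r*, *Il9r*, *Il21r* and *Il23r* matched by spelling alone, are receptors and were listed at 0 in both libraries, which left 77 ligand genes.

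mRNA sequencing was examined in 2 libraries of mouse lung cancer cells, 1 of KPR- cells and 1 of KPR_restored cells. KPR- cells were immortalized and grown out of lung tumours of KPR L/F-TAM(-) mice, a group of mixed background that was not given tamoxifen, and how many lines or clones were sequenced was not given. The alleles of these mice were *Runx3* flox/FSF, *K-Ras* LSL-G12D/+ and, on both copies, *p53* flox, with *Rosa26R*-Tomato and Flp ERT2, and Cre from an adenovirus given to the lung activated *K-Ras* and deleted *p53* and 1 *Runx3* allele. In KPR_restored cells, 4-hydroxytamoxifen (4-OHT) had switched on the Flp recombinase, which removes a stop cassette from the other *Runx3* allele. The sample records give the *Runx3* genotype as -/- at 0 h and -/+ at 16 h and list 1 μM 4-OHT for both libraries, whereas in the study 4-OHT is what separates the conditions. With 1 library per condition, a difference has no replicate check, the 4-OHT treatment and the hours in culture cannot be told apart from *Runx3* restoration, and no p-value was computed.

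Chemokines are small secreted proteins that guide leukocytes through G protein-coupled receptors. CXC chemokines with a Glu-Leu-Arg motif, such as Cxcl1, Cxcl2, Cxcl3 and Cxcl5, draw neutrophils through Cxcr2, and CC chemokines such as Ccl2 draw monocytes. Many interleukins, GM-CSF and G-CSF act on receptors that signal through JAK kinases, the interleukin 1 family through the Myd88 adaptor, the interleukin 17 family through Act1, and Csf1 and Il34 on Csf1r, a receptor tyrosine kinase. Lung epithelium makes many of these ligands when it is injured or infected. Their genes are commonly switched on through NF-kappaB and AP-1, and many of their mRNAs carry AU-rich elements in the 3′ UTR that shorten their life.

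The deposited values are FPKM, fragments scaled to transcript length and library size, so levels of different genes can be set side by side. Whole-fragment steps among low values gave a depth of 21.7 M (mega) fragments in KPR- and 22.5 M in KPR_restored. *Runx3* had 0.348 FPKM (about 28 fragments) in KPR- and 0.349 FPKM (about 29) in KPR_restored. The log2 difference of *Runx3*, defined below with its counting interval, was 0.0074 (-0.80 to 0.81). No rise in *Runx3* mRNA was thus seen, although at this depth the interval leaves room for one. The sum over the gene does not separate transcripts of the restored allele from others. The restoration named by the labels was therefore not seen in these values and could not be checked further. The 7 epithelial markers examined were all at a mean FPKM of 1 or more and summed to 6217 FPKM in KPR- and 5571 FPKM in KPR_restored, whereas of 6 markers of alveolar type 2 cells 5 were listed at 0 in both libraries and *Nkx2-1* had 0.0444 and 0.0216 FPKM. Of 10 immune markers with a value, *Cd3e*, *Adgre1* and *Tyrobp* were among those listed at 0 in both libraries, the pan-leukocyte gene *Ptprc* was listed at 0 and 0.00892 FPKM, and *Cd14*, *Cd68* and *Csf1r* had a mean of 1 or more; the list summed to 82.7 and 96.0 FPKM. Of 7 fibroblast markers *Col1a1* alone reached a mean of 1, with 12.2 and 4.21 FPKM, and of 5 endothelial markers *Kdr* alone, with 1.10 and 2.05 FPKM; these lists summed to 12.7 and 5.35 FPKM and to 1.19 and 2.24 FPKM, and their part in the results was not tested.

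Of the 81 genes, 24 averaged 1 FPKM or more, 21 were above 0 with a lower mean, and 36 were listed at 0 in both. The 24 genes are *Cxcl1*, *Cxcl2*, *Cxcl3*, *Cxcl5*, *Cxcl10*, *Cxcl16*, *Cxcl17*, *Cx3cl1*, *Ccl2*, *Ccl7*, *Ccl9*, *Ccl20*, *Ccl25*, *Ccl27a*, *Il1a*, *Il33*, *Lif*, *Il23a*, *Il24*, *Il17d*, *Csf1*, *Csf2*, *Csf3* and *Il34*, and each was also at 1 or more in each library. Just inside the limit were *Il17d* and *Ccl9*, with means of 1.47 and 1.89 FPKM, and just outside it *Cxcl14* and *Cxcl12*, with means of 0.948 and 0.796 FPKM. The summed level of all 81 genes was 2167 FPKM in KPR- and 2302 FPKM in KPR_restored, and *Cxcl5* alone made up 43.5% and 40.9% of it.

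The difference of a gene was taken as log2(FPKM + 0.005) in KPR_restored minus that in KPR-, with a threshold of 0.5 either way, and a 95% exact Clopper-Pearson interval from the estimated fragments, which covers counting error only. A lower value in these bulk libraries cannot tell fewer cells that make a transcript from less of it per cell. Of the 24 genes, 7 were higher by 0.5 or more in KPR_restored, where 12.1% of the 11231 genes of the series that averaged 1 FPKM or more were, and 6 were lower by as much, where 9.29% of those genes were. These are 29.2% and 25% of the 24 genes, a description without a test. Differences of 1 or more either way were found for 6 of the 24 genes, against 4.27% of all genes at that level. The median difference of the 24 genes was 0.14, with quartiles of -0.37 and 0.67, and that of all genes at that level was 0.0086, with quartiles of -0.23 and 0.27. The counting interval lay above 0 for 10 of the 24 genes and below 0 for 5, against 34.3% and 33% of the 11141 genes at that level with estimated fragments. An interval off 0 was thus the rule in the series and does not mark out a gene by itself.

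**Figure D1:**
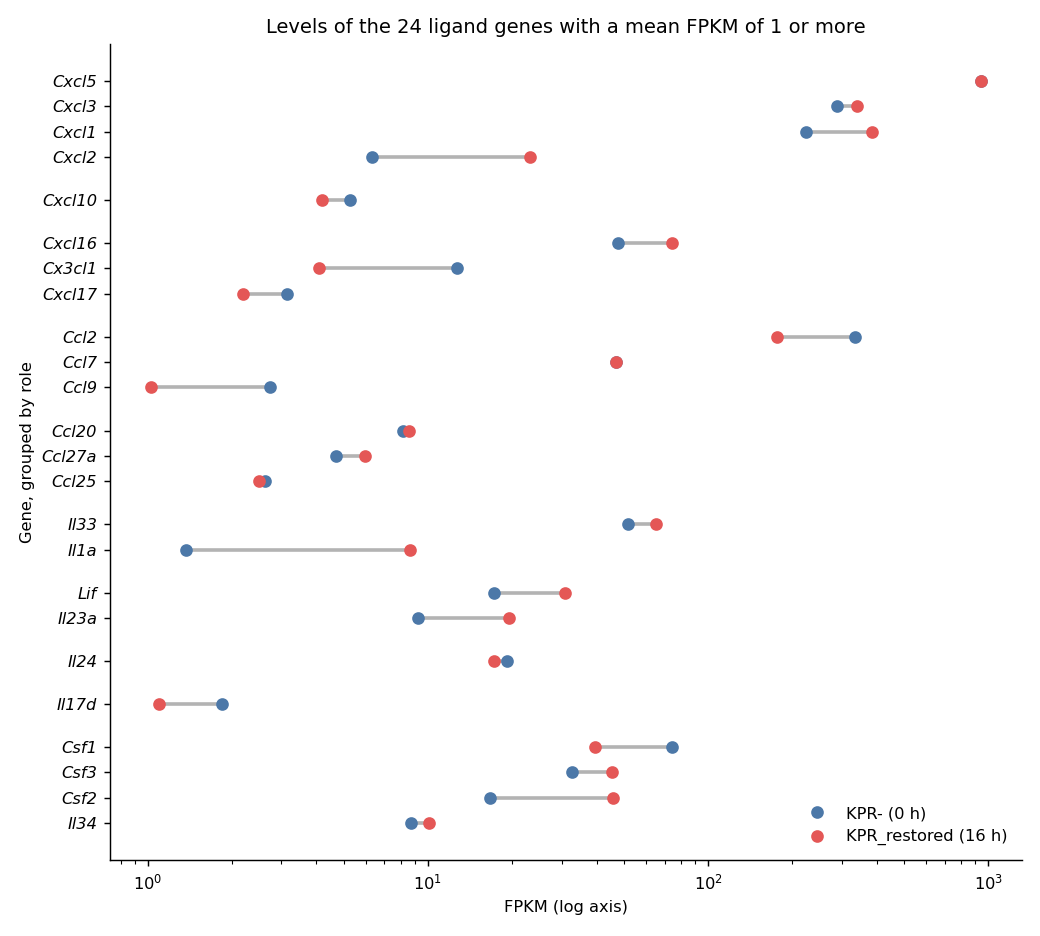
FPKM (log axis) of the 24 ligand genes with a mean of 1 or more, in KPR- (blue) and KPR_restored (red), grouped by role; each point is 1 library. *Cxcl5* lies near 941 FPKM in both libraries, above every other gene, while *Il1a* has the widest gap, from 1.37 to 8.66 FPKM.

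The neutrophil-attracting CXC ligands were the most abundant group, with 1460 FPKM summed in KPR- and 1688 FPKM in KPR_restored. *Cxcl5* had 942 FPKM in KPR- and 940 FPKM in KPR_restored, a difference of -0.0020 with an interval of -0.026 to 0.022, and its mean ranked 91 of all 23183 genes. *Cxcl3* had 288 and 340 FPKM, a difference of 0.24 with an interval of 0.19 to 0.29, under the threshold. *Cxcl1* had 224 and 384 FPKM, a difference of 0.78 (0.72 to 0.84), which is 1.72-fold higher in KPR_restored. *Cxcl2*, the lowest of these 4 genes, had 6.31 and 23.1 FPKM, a difference of 1.87 (1.58 to 2.17), which is 3.66-fold higher. These 4 genes thus ranged from no detectable difference to one exceeded, upward, by *Il1a* alone among the 24 genes. *Ppbp*, a CXC chemokine gene outside the symbol pattern, was lower in KPR_restored and is given below. *Cxcl1* lay below *Cxcl3* in KPR- and above it in KPR_restored. *Cxcl2* and *Cxcl3* share 11 stretches of 100 bases, 1.09% and 1.20% of their transcripts' stretches, so reads there could be counted for either. *Cxcl15*, the lung-restricted member of the group, had about 1 fragment in KPR- and was listed at 0 in KPR_restored.

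These genes lie side by side on chromosome 5 of GRCm38 (plus strand), in the order *Cxcl5* (90759360 to 90761624), *Ppbp*, *Pf4*, *Cxcl3* (90786103 to 90789600), *Cxcl15*, *Cxcl1* (90891241 to 90893115) and *Cxcl2* (90903871 to 90905938). *Cxcl1* and *Cxcl2*, both past the threshold, are neighbours with 10.8 kb between them. *Ppbp* and *Pf4*, which encode the platelet chemokines Cxcl7 and Cxcl4 and carry names outside the symbol pattern, sit between *Cxcl5* and *Cxcl3*. *Ppbp* had 49.7 FPKM in KPR- and 17.2 FPKM in KPR_restored, a difference of -1.53 (-1.72 to -1.35), in the direction opposite to *Cxcl1* and *Cxcl2*. *Pf4* had 0.719 and 0.474 FPKM, from about 6 and 4 fragments. Neighbours in this cluster thus went in both directions.

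The RefSeq start regions (GRCm38.p6) of 3 genes of the cluster are shown because *Cxcl1*, *Cxcl2* and *Cxcl3* share a run of bases while their differences are not alike. Each is the 130 bases before the start, 5′ to 3′ on the plus strand, with capitals for TATAAA and for an NF-kappaB (kB) motif, searched as GGG, any 3 bases and TTCC, on either strand.
Cxcl3, chr5:90785971-90786100: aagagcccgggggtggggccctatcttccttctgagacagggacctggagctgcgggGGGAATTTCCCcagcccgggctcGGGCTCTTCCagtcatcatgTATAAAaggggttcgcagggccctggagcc
Cxcl1, chr5:90891115-90891244: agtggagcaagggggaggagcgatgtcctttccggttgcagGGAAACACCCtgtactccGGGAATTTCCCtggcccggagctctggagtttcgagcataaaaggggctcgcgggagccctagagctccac
Cxcl2, chr5:90903769-90903898: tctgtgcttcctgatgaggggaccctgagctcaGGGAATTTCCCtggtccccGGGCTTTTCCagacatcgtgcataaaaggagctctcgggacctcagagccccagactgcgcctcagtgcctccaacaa

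The same 10 bases, GGGAATTTCC, begin at position -73 in *Cxcl3*, -71 in *Cxcl1* and -97 in *Cxcl2*, counted from the start. In each, a match on the minus strand begins 1 base later and overlaps it. These letters were found, on either strand, in 29 of 32851 start regions of 300 bases (250 before the start and 50 after), which is 0.0883% of them. The letters were read from *Cxcl1*, *Cxcl2* and *Cxcl3* themselves, so their presence in these neighbouring genes was fixed in advance. The kB motif with any 3 bases in its middle was found in 5.56% of all start regions and in those of 7 of the 15 ligand genes with such a sequence, namely *Cxcl1*, *Cxcl2*, *Cxcl3*, *Cxcl10*, *Ccl9*, *Ccl20* and *Csf1*. Here and below, shares of all are per start region but ligand genes are counted per gene. A gene such as *Ccl27a* or *Il33* has several start regions, so the shares and the counts are not like for like. Of these 7 genes, *Cxcl1* and *Cxcl2* were higher and *Ccl9* and *Csf1* lower by 0.5 or more, so genes with the motif went both ways. The RUNX motif TGTGGT was found in 16.8% of all start regions and in those of *Cxcl3*, *Ccl20* and *Lif*, and its variant TGCGGT in 6.45% of all and in none of the 15. TGATGNAA, the C/EBP-ATF element, was found in 3.97% of all start regions and in start regions of *Ccl27a*. The AP-1 motif TGANTCA was found in 7.81% of all start regions and in those of *Ccl27a*, *Ccl9*, *Cxcl10*, *Il1a* and *Lif*, and TATAAA in 13.6% of all and in those of *Ccl25*, *Ccl9*, *Cx3cl1*, *Cxcl3*, *Il1a* and *Il33*. *Ccl2*, *Ccl7*, *Csf3*, *Cxcl5*, *Cxcl16*, *Cxcl17*, *Il23a*, *Il24* and *Il34* were not searched.

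**Figure D2:**
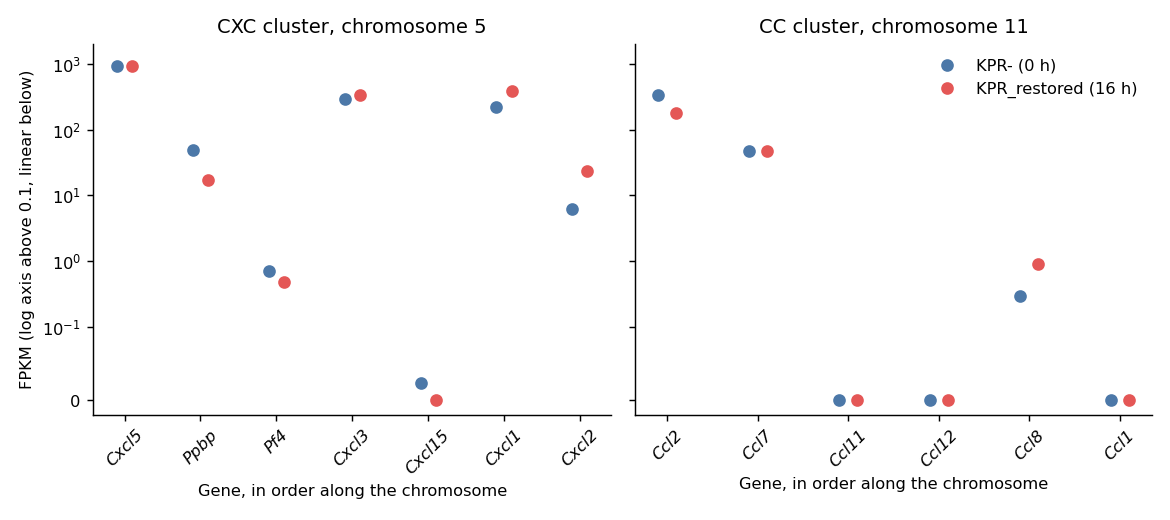
FPKM in KPR- (blue) and KPR_restored (red) of the genes of 2 chemokine clusters, in their order along the chromosome; each point is 1 library, and the axis is logarithmic above 0.1 and linear below. On chromosome 5, *Cxcl5* is level, *Ppbp* is lower and *Cxcl1* and *Cxcl2* are higher in KPR_restored; on chromosome 11, *Ccl2* is lower while its neighbour *Ccl7* is level.

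The CC ligands were led by *Ccl2*, the main monocyte attractant, on chromosome 11 (82035571 to 82037453). *Ccl2* had about 4431 fragments in KPR- and 2350 in KPR_restored, and its level of 334 FPKM in KPR- against 176 FPKM in KPR_restored made it 1.90-fold lower, with an interval of the log2 difference of -1.0 to -0.86. *Ccl7*, which shares the receptor Ccr2 with *Ccl2* and lies 8.26 kb from it, had 46.9 and 47.1 FPKM, a difference of 0.0043 (-0.16 to 0.17). The gap between these neighbours is wider than their counting intervals. Further along the same cluster, *Ccl11*, *Ccl12* and *Ccl1* were listed at 0 in both libraries and *Ccl8* had 0.300 and 0.894 FPKM, from about 2 and 6 fragments.

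In the other CC cluster of chromosome 11, *Ccl9* (83572919 to 83578636, minus strand), a ligand of Ccr1, had 2.74 FPKM in KPR- and 1.03 FPKM in KPR_restored, a difference of -1.41 (-1.84 to -0.99). *Ccl6* next to it had 0.186 and 0.0363 FPKM, from about 5 fragments and 1 fragment, and *Ccl5*, an attractant of T cells, had 0.141 and 0.838 FPKM, from about 1 and 6 fragments. *Ccl3* and *Ccl4* were listed at 0 in both. Counting error of *Ccl5*, *Ccl6* and *Ccl8* spans 0.

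*Ccl20*, which draws Ccr6-bearing cells to mucosa, had 8.15 and 8.54 FPKM, a difference of 0.066 (-0.33 to 0.47). *Ccl25* had 2.62 and 2.50 FPKM (-0.69 to 0.52), and 204 of its exonic bases overlap exons of *Elavl1* on the other strand, which had 20.2 and 20.7 FPKM. *Ccl27a*, a skin-homing chemokine, had 4.71 and 5.97 FPKM (-0.13 to 0.84), and 46.2% of the 100-base stretches of its transcript also occur in other genes, *Ccl27b* among them, so its value is uncertain. *Ccl28*, a mucosal chemokine, had 0.440 and 0.289 FPKM. No difference past the counting error was seen for these 4 genes at this depth, and the intervals of *Ccl25*, *Ccl27a* and *Ccl28* reach beyond 0.5 in size.

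Among the CXC and CX3C ligands that act mainly on lymphocytes and monocytes, *Cxcl16* and *Cx3cl1* moved apart. Both encode chemokines made as membrane-bound proteins that sheddases release. *Cxcl16* had 47.6 FPKM in KPR- and 74.1 FPKM in KPR_restored, a difference of 0.64 (0.57 to 0.71), and 552 of its exonic bases overlap exons of *Zmynd15* on the other strand, which had 6.28 and 8.80 FPKM. *Cx3cl1*, or fractalkine, on chromosome 8 (94772009 to 94782427), had 12.7 FPKM in KPR- and 4.08 FPKM in KPR_restored, a difference of -1.64 (-1.84 to -1.45), which is 3.12-fold lower and the largest difference downward among the 24 genes. *Cxcl17*, a mucosal chemokine, had 3.14 and 2.19 FPKM, a difference of -0.52, but with about 38 and 27 fragments its interval ran from -1.27 to 0.25 and included 0.

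*Cxcl10*, an interferon-inducible ligand of Cxcr3, had 5.27 and 4.20 FPKM, a difference of -0.33 (-0.76 to 0.11). The other Cxcr3 ligands were near 0: *Cxcl9* had about 1 fragment in each library, and *Cxcl11* had about 1 and 3. The start region of *Cxcl10* is shown for comparison with those of the chromosome 5 genes, as the 170 bases before the start on the minus strand (GRCm38.p6), with the kB motif and the AP-1 motif in capitals.
Cxcl10, chr5:92348890-92349059: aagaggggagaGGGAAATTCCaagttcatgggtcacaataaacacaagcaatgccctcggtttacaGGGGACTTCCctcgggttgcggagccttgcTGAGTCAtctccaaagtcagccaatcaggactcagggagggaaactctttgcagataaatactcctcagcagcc

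It holds 2 kB matches and 1 AP-1 match, and their part in the level of *Cxcl10* was not tested. *Cxcl12*, the ligand of Cxcr4 and Ackr3, and *Cxcl14* had means under 1 and stand outside the 24 genes; *Cxcl12* had 1.34 FPKM in KPR- and 0.250 FPKM in KPR_restored, with an interval of -3.06 to -1.88, and *Cxcl14* had 1.02 and 0.879 FPKM, with an interval of -0.94 to 0.52. *Cxcl13* was listed at 0 in both.

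**Figure D3:**
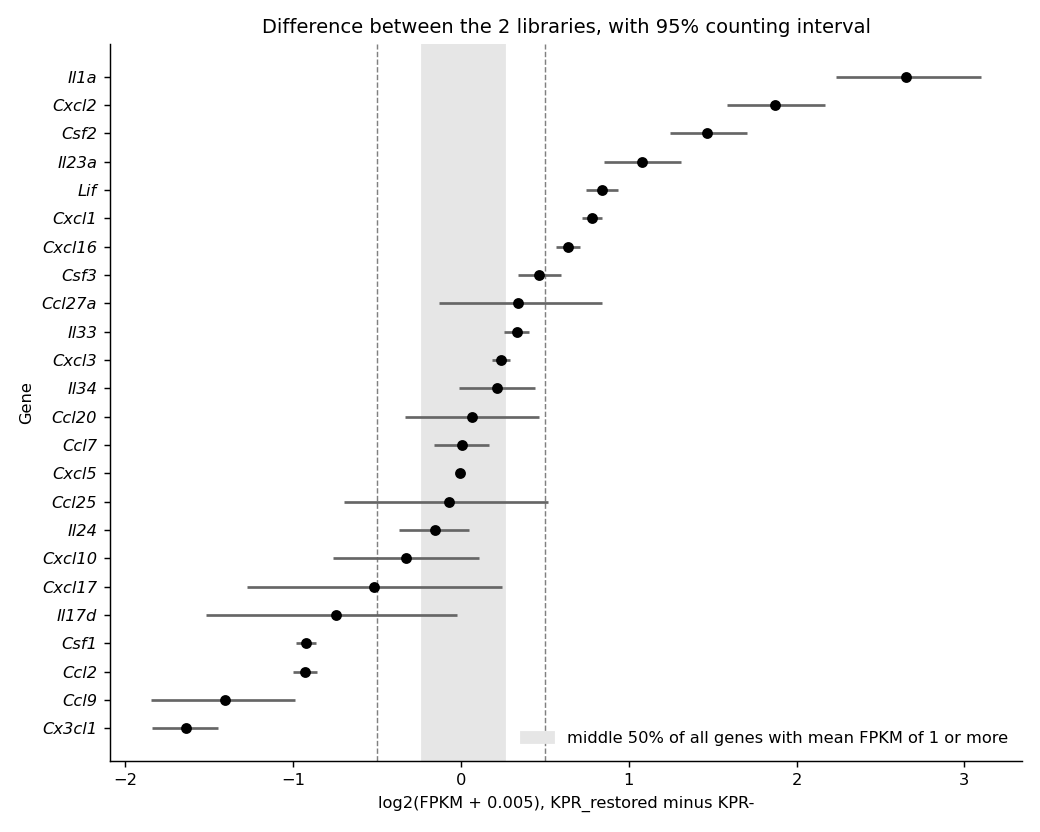
Difference of each of the 24 ligand genes on the log2(FPKM + 0.005) scale, KPR_restored minus KPR- (points), with 95% counting intervals (bars), dashed lines at 0.5 either way and a grey band for the middle 50% of all genes with a mean FPKM of 1 or more. *Il1a*, *Cxcl2*, *Csf2* and *Il23a* lie above 1, and *Cx3cl1* and *Ccl9* below -1.

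*Il1a*, which encodes the alarmin interleukin 1 alpha, had the largest difference upward among the 24 genes. It lies on chromosome 2 (129299610 to 129309972, minus strand) and had 1.37 FPKM in KPR- and 8.66 FPKM in KPR_restored, from about 53 and 343 fragments, a difference of 2.65 (2.23 to 3.10) or 6.31-fold. Exons of *Gm14023* on the other strand, at 0.203 and 0.0566 FPKM, overlap 222 of its bases. *Il1b*, the other interleukin 1, lies on the same chromosome (129364570 to 129371139) and had about 1 and 2 fragments. The receptor antagonist *Il1rn* had 5.96 and 12.3 FPKM, a difference of 1.04 (0.84 to 1.24), so agonist and antagonist were both higher. *Il33*, a nuclear alarmin of epithelium, was the most abundant interleukin, with 51.8 and 65.3 FPKM and a difference of 0.33 (0.26 to 0.41). *Il18* was listed at 0 in KPR- and at 0.340 FPKM, about 5 fragments, in KPR_restored. The 60 bases before the RefSeq start of *Il1a* (GRCm38.p6, minus strand) are shown with TATAAA and the AP-1 motif in capitals, because of the genes shown it holds the AP-1 match nearest to the start, beginning at position -12.
Il1a, chr2:129309973-129310032: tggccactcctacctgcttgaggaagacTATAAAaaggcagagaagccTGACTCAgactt

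*Lif* and *Il23a* were the expressed genes of the interleukin 6 and interleukin 12 families. *Lif*, a self-renewal factor that signals through Lifr and Il6st, had 17.3 and 30.9 FPKM, a difference of 0.84 (0.75 to 0.94). *Il23a* encodes the p19 subunit of interleukin 23 and had 9.25 and 19.5 FPKM, a difference of 1.08 (0.86 to 1.31). Its partner *Il12b*, which encodes the p40 subunit, was listed at 0 in KPR- and had about 1 fragment in KPR_restored. *Il11* had 0.168 and 0.761 FPKM, from about 6 and 30 fragments, with an interval of 0.99 to 3.84. *Il6* was listed at 0 in KPR- and at 0.102 FPKM, about 2 fragments, in KPR_restored, and *Il12a*, *Il27* and *Il31* were listed at 0 in both.

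The colony-stimulating factors went in opposite directions. *Csf1*, the growth factor of macrophages, on chromosome 3 (minus strand), had 74.7 FPKM in KPR- and 39.4 FPKM in KPR_restored, a difference of -0.92 (-0.98 to -0.86) or 1.89-fold lower. *Csf2*, which encodes GM-CSF, had 16.6 FPKM in KPR- and 46.0 FPKM in KPR_restored, a difference of 1.47 (1.25 to 1.70) or 2.77-fold higher. *Csf3*, which encodes G-CSF, the growth factor of neutrophils, had 32.8 and 45.4 FPKM, a difference of 0.47 (0.34 to 0.60), under the threshold of 0.5 with an interval that spans it. *Il34*, the other ligand of Csf1r, had 8.68 and 10.1 FPKM, a difference of 0.22 (-0.0097 to 0.44). *Csf1* was the most abundant of these 4 genes in KPR-, and in KPR_restored it stood below *Csf2* and *Csf3*, while the summed level of the group was 133 FPKM and 141 FPKM.

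Of the remaining families, *Il24*, of the interleukin 10 family, had 19.1 and 17.2 FPKM, a difference of -0.16 (-0.37 to 0.051). *Il17d* had 1.85 and 1.10 FPKM, a difference of -0.75, from about 43 and 26 fragments with an interval of -1.52 to -0.022. Of the 10 common gamma chain cytokines and their relatives, 0 reached a mean of 1. *Il15*, which supports natural killer cells, had 0.895 and 0.376 FPKM, from about 20 and 9 fragments with an interval of -2.50 to 0.017. *Il7* had 0.0202 and 0.118 FPKM, from about 2 and 12 fragments, with an interval of 0.37 to 5.74 that included 0 when the shortest coding transcript was used, and *Il5* had 0.103 FPKM, about 3 fragments, in KPR- and was listed at 0 in KPR_restored. *Tnf* had 0.380 and 0.246 FPKM, from about 12 and 8 fragments. *Il10*, *Il16* and *Il17f* made up the rest of the 21 low genes, with at most about 5 fragments in a library, and *Tslp*, *Il2*, *Il4*, *Il13* and *Il17a* were among the 36 listed at 0 in both.

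The receptors for these ligands were read in the same libraries, from a list of 23 chemokine receptors and 39 cytokine receptors and decoys. Of the chemokine receptors, 2 had a mean FPKM of at least 1, *Ackr3* and *Ccrl2*, both of them atypical receptors. *Ackr3*, a scavenger of Cxcl12, had 40.1 and 46.2 FPKM (0.13 to 0.28), and *Ccrl2* had 1.64 and 0.601 FPKM, a difference of -1.44 (-2.12 to -0.84). *Cxcr2*, the receptor of the most abundant group of ligands, had 0.597 and 0.407 FPKM, from about 37 and 26 fragments. *Cxcr4*, the receptor of Cxcl12, had 0.228 and 0.609 FPKM, from about 8 and 22, and *Ccr7* had 0.133 and 0.311 FPKM, from about 5 and 12. *Ccr9* was listed at 0 in KPR- and had about 2 fragments in KPR_restored. *Cxcr3*, *Cxcr6*, *Cx3cr1* and *Ccr2* had at most about 7 fragments in a library, *Ccr10* had about 10 and 6, and *Ccr1* and *Ccr6* were listed at 0 in both. None of the signalling chemokine receptors on the list averaged 1 FPKM, while 14 of the chemokine genes did.

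Cytokine receptors were present more often: 24 of the 39 genes reached a mean of 1, with a median difference of 0.078. Of these, 4 were higher and 7 were lower by 0.5 or more, where 12.1% and 9.29% of all genes at that level were. These counts are a description without a test. *Csf2ra*, which binds GM-CSF, had 1.17 and 2.82 FPKM, a difference of 1.27 (0.74 to 1.82), in the direction of its ligand *Csf2*, but *Csf2rb*, the shared signalling chain, was listed at 0 in both. *Csf1r* had 2.68 and 1.19 FPKM, a difference of -1.17 (-1.53 to -0.82), in the direction of its ligand *Csf1*, and *Csf3r* had about 1 fragment in KPR- and was listed at 0 in KPR_restored. *Lifr* had 2.47 and 1.30 FPKM, a difference of -0.92 (-1.14 to -0.71), and its partner *Il6st* had 19.3 and 13.3 FPKM, a difference of -0.54 (-0.61 to -0.46), both opposite to *Lif*. *Il1r1* had 4.43 and 3.72 FPKM, a difference of -0.25 (-0.43 to -0.070), and *Il1rap* had 1.95 and 1.62 FPKM (-0.59 to 0.045). *Il1rl1*, the receptor of interleukin 33, had 0.298 and 0.734 FPKM (0.70 to 1.93). Of the chains that bind interleukin 24, *Il22ra1* had 17.7 and 11.2 FPKM, a difference of -0.67 (-0.82 to -0.52), and *Il20rb* had 0.886 and 0.842 FPKM (-0.67 to 0.52). *Crlf2*, a chain of the receptor of Tslp, had 6.55 and 10.8 FPKM, a difference of 0.73, although *Tslp* was listed at 0. *Il13ra1*, *Il6ra* and *Tnfrsf1b* had differences of -0.93, -0.90 and -0.64, and *Osmr*, the receptor of oncostatin M, of 0.61.

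**Figure D4:**
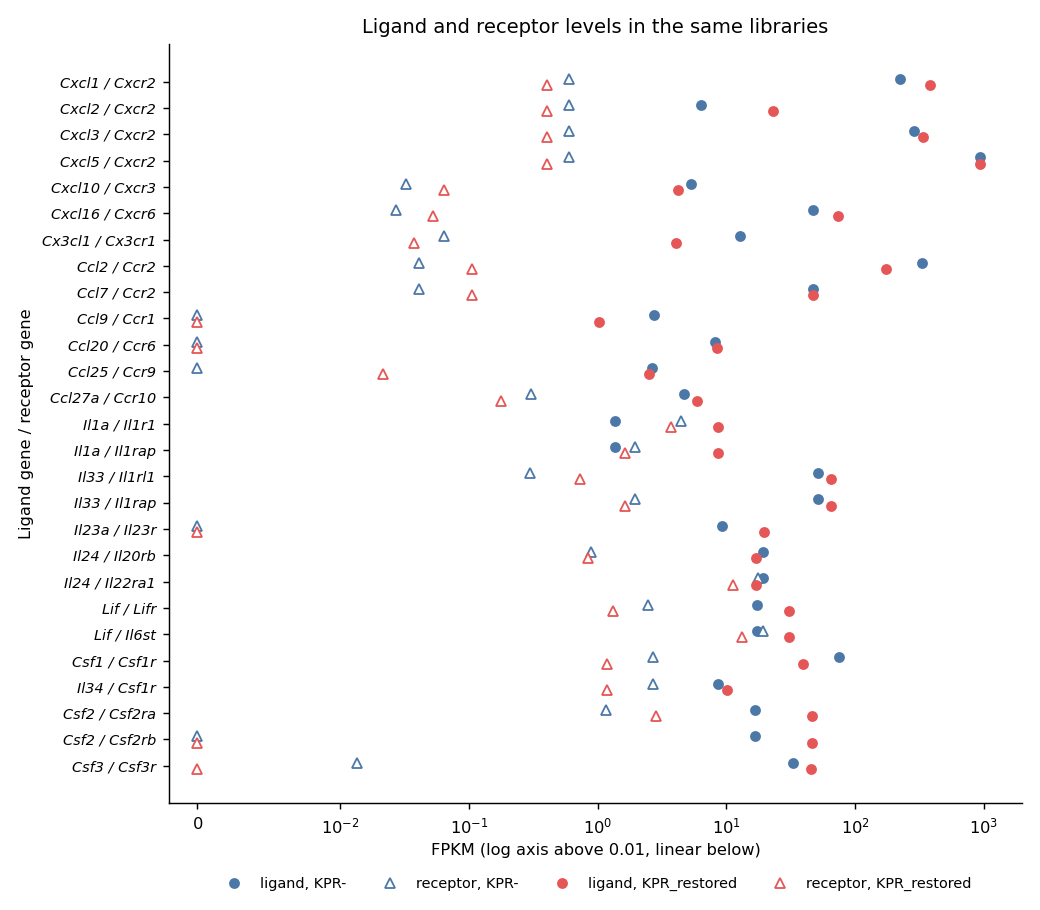
FPKM of ligand genes (filled circles) and of the receptor genes their proteins bind (open triangles) in KPR- (blue) and KPR_restored (red); each point is 1 library, and the axis is logarithmic above 0.01 and linear below. Chemokine receptors other than *Cxcr2* lie at 0.301 FPKM or lower while their ligands lie above 1, and *Csf2rb*, *Ccr1*, *Ccr6* and *Il23r* sit at 0.

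AU-rich elements were counted in the 3′ UTR of the longest coding GENCODE M21 transcript with a RefSeq counterpart, as the pentamer ATTTA and the nonamer TTATTTATT, a choice made after the values were seen. The nonamer was found in 7 of the 24 genes (29.2%), against 7.69% of the 10874 genes that averaged 1 FPKM or more and have such a transcript. *Csf2* and *Cxcl2* held 4 nonamers each, *Cxcl1* and *Lif* 2 each, and *Cxcl3*, *Il23a* and *Cx3cl1* 1 each. Of these 7 genes, *Csf2*, *Cxcl2*, *Cxcl1*, *Lif* and *Il23a* were higher by 0.5 or more, *Cx3cl1* was lower, and *Cxcl3* was under the threshold. *Cxcl1*, *Cxcl2* and *Cxcl3* are members of the same cluster and cannot be taken as separate cases. Of the 17 genes without a nonamer, 2 were higher and 5 were lower. Over all genes at this level the nonamer went with no such split, since 13.6% of the 836 genes with it were higher and 9.09% lower, against 11.7% and 8.89% of the 10038 genes without it, and the median differences were 0.0089 and 0.0090.

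The stretch of 30 bases with the most pentamers is shown for these 7 genes and for *Il1a*, the gene with the largest difference upward, since their elements differ in density. Each is 5′ to 3′ on the strand of the gene within the 3′ UTR (GRCm38), with ATTTA in capitals.
Csf2, chr11:54247324-54247353, minus: aaatATTTATTTATTTATTTATTTAttttt
Cxcl2, chr5:90905328-90905357, plus: ATTTATTTAtctatgtATTTATTTATTTAt
Cxcl1, chr5:90892607-90892636, plus: tcctATTTATTTAtgtATTTATTTAttcca
Lif, chr11:4272414-4272443, plus: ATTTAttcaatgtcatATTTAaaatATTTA
Il23a, chr10:128296175-128296204, minus: ggttATTTAttctATTTAtaaggaattatg
Cxcl3, chr5:90787636-90787665, plus: gcatcttATTTAatgtttATTTAatatcaa
Il1a, chr2:129300098-129300127, minus: gtATTTAtaaatatATTTAtgataattata
Cx3cl1, chr8:94780850-94780879, plus: cagtgaacaattATTTAttggattcccagc

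Overlapping pentamers fill most of the stretches of *Csf2*, *Cxcl2* and *Cxcl1*, with 5, 5 and 4 pentamers, whereas those of *Il1a* and *Cx3cl1* hold 2 and 1. Over the whole 3′ UTR, *Cxcl2* had 11 pentamers in 734 bases and *Csf2* 9 in 317 bases, and *Ccl2* and *Csf1*, both lower in KPR_restored, had 1 in 275 bases and 4 in 2111 bases. *Ccl9*, which was lower by 1.41, had 5 pentamers, as did the level genes *Cxcl5* and *Ccl20*, so the number of pentamers did not order all of the differences. Of the 10 genes with 5 pentamers or more, 5 were higher and 1 was lower by 0.5 or more. Of all 2326 genes with as many, 8.38% were higher and 11.3% lower. The 24 ligand genes with any number were 29.2% higher and 25% lower, so this contrast mixes pentamers with being a ligand gene. *Cxcl1*, *Cxcl2*, *Cxcl3* and *Cxcl5*, all among the 10 genes, are members of the same cluster and cannot be taken as separate cases.

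**Figure D5:**
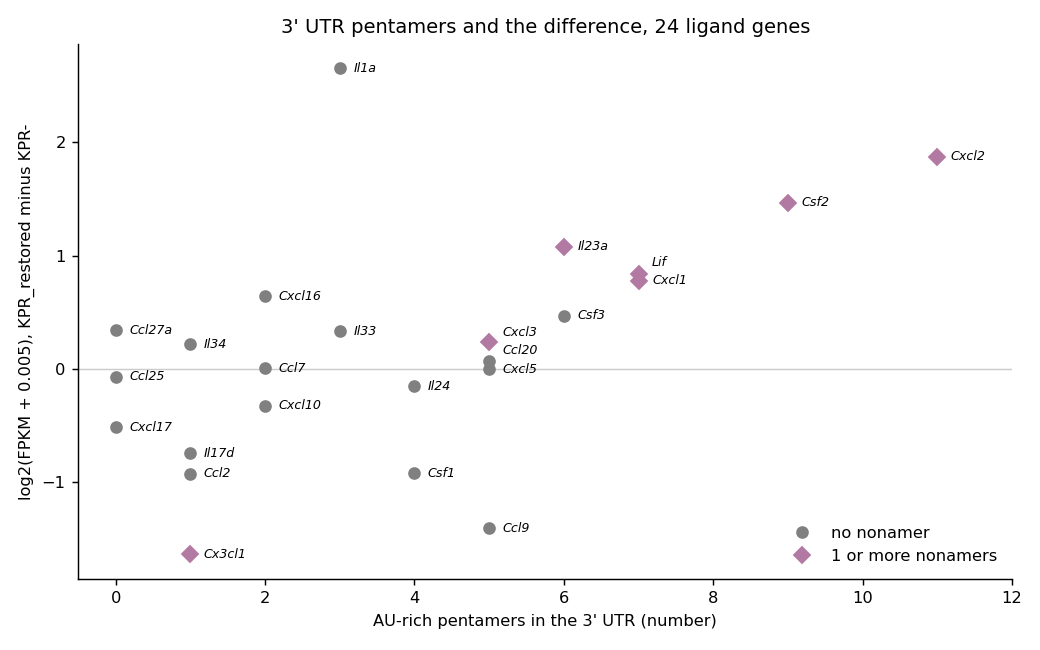
Number of ATTTA pentamers in the 3′ UTR (horizontal axis) against the difference on the log2(FPKM + 0.005) scale, KPR_restored minus KPR- (vertical axis), for the 24 ligand genes; purple diamonds hold at least 1 nonamer and grey circles none. *Csf2* and *Cxcl2*, with 9 and 11 pentamers, lie at 1.47 and 1.87, while *Il1a* lies highest with 3 and *Ccl9* lies at -1.41 with 5.

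All 12 listed genes whose proteins act on such elements or on cytokine mRNA had a mean of 1 FPKM or more. *Arid5a*, which stabilises interleukin 6 mRNA, had 2.79 and 9.34 FPKM, a difference of 1.74 (1.56 to 1.93), and *Zfp36*, which encodes the decay factor tristetraprolin, had 7.34 and 11.1 FPKM, a difference of 0.60 (0.42 to 0.79). These were the 2 genes of the list past the threshold, where 12.1% of all genes at that level were higher by as much. The list had a median difference of 0.041. The related decay factors *Zfp36l1* and *Zfp36l2* had differences of 0.35 and 0.40, and the endonuclease gene *Zc3h12a* of 0.21. *Rc3h1*, which encodes the decay factor Roquin-1, had a difference of -0.36, and *Khsrp*, *Tial1* and *Hnrnpd* had differences of -0.26, -0.26 and -0.20. *Arid5a*, a stabilising factor, and *Zfp36*, a decay factor, were thus both higher in the same library, and their action on the ligand mRNAs was not tested.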

How the data were processed

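Poly(A) RNA of 1 library of KPR- and 1 of KPR_restored cells was sequenced by the authors as paired-end reads of 100 bases from directional libraries. Per the labels and the paper's methods, adapters and low-quality reads were removed, reads were mapped to mm10 using TopHat, and the authors deposited FPKM values estimated using Cufflinks; a geometric normalization is also named, and whether it was applied to these values is not given. Tool versions, the annotation and the strand setting are not given in the sources used here. FPKM values were used as deposited, 1 per gene and library.

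Differences were log2(FPKM + 0.005), which understates the change of low genes, with a threshold of 0.5. Low FPKM values of genes of a single GENCODE M21 (GRCm38) transcript length were fitted to whole fragments. This gave depths of 21.7 and 22.5 M fragments, with 78.5% of 571 and 80.2% of 585 values within 0.1 of a whole number. By chance 20% would be on a scale that was not fitted. The fit chose its scale on such values, so 20% is no chance level for the fitted scale. Fragments per gene were estimated for 22621 genes with the longest transcript with a RefSeq counterpart, which is an upper estimate for genes of several lengths, and gave exact Clopper-Pearson intervals (95%, counting error only). Of 23183 symbols, 22148 matched GENCODE directly and 673 through a synonym. The depth fit and the intervals were run on simulated libraries with transcript lengths and fragment counts known. The step from FPKM to fragments with an assumed transcript was not simulated, so its error was not tested there. The genes, lists and motifs were chosen with earlier results of these data known. Every gene of the symbol pattern that averaged 1 FPKM or more was named with both values, every lower gene with an FPKM above 0 was named, and receptors of the named ligands and the largest differences of each list were added; counts over lists are descriptions, and some listed genes are not reported here by name. Alternatives were other pseudocounts, scalings, filters and a threshold of 1, and, added after the values were seen, the shortest coding transcript for the fragments. UTR and start-region searches were chosen after the values were seen, and start regions were searched on both strands. Figures were drawn with matplotlib 3.10.9; values were computed in Python 3.11.15 with scipy 1.17.1, pandas 2.3.3 and numpy 2.4.6.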

Additional observations from a re-analysis of the deposited data

How the results depend on the processing

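No paired analysis was possible because each condition has 1 library, and for the same reason no library could be left out. Scaling to the same FPKM total or the same upper quartile and centring on the median gene kept the same 7 higher and 6 lower genes, with a median difference of the 24 genes between 0.12 and 0.13, against 0.14. With a pseudocount of 0.1, *Cxcl17* was no longer lower by 0.5, and with a pseudocount of 1 neither *Cxcl17* nor *Il17d* was, while the 7 higher genes were the same and the differences of *Il1a*, *Ccl9* and *Cx3cl1* shrank to 2.03, -0.88 and -1.43. With a threshold of 1, 4 genes were higher and 2 lower, where 4.27% of all genes at that level differed by as much either way. With a mean FPKM of at least 5, 7 were higher and 3 lower, with a mean of at least 0.1, 11 and 11, and with every gene above 0, 16 and 15, since low genes enter or leave. Shares of all genes under these other filters are not given here, so these counts are no result about the ligand genes. A mean of at least 0.5 would admit 28 genes in place of 24, and an FPKM of at least 1 in either library 26. The log2 ratio of the summed levels was 0.087, and 0.15 without *Cxcl5*. With the shortest coding transcript for the fragments, 15 intervals lay off 0, as with the longest. Depth limits the genes with few fragments, such as *Cxcl17* and *Il17d*. The effect of the strand setting, which bears on genes that overlap another gene such as *Ccl25*, was not tested.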

Other observations

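Secreted ligands outside the symbol pattern and enzymes that process cytokines were read from lists of 26 and 15 genes. Of the 26 ligand genes, 11 averaged 1 FPKM or more, with a median difference of -0.072. Of these, 0 were higher and 4 were lower by 0.5 or more, where 12.1% and 9.29% of all genes at that level were. *Mif*, the macrophage migration inhibitory factor, had 858 and 1001 FPKM, a difference of 0.22 (0.17 to 0.27), close in level to *Cxcl5*. *Flt3l* had 1.70 and 2.27 FPKM, with an interval of -0.26 to 1.14. The lower genes included *Ppbp*. *Clcf1*, a cytokine of the interleukin 6 family, had 56.0 and 60.3 FPKM (0.020 to 0.20). *Cntf* and *Ctf1*, relatives of *Lif*, had differences of -0.70 and -0.67, opposite to *Lif*, and the interval of *Ctf1* included 0. *Kitl*, the stem cell factor gene, had 23.3 and 17.7 FPKM, a difference of -0.39 (-0.48 to -0.31).

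Of the 14 processing genes with a value, 8 had a mean of at least 1, with a median difference of -0.29. Of these, 1 was higher and 1 lower by 0.5 or more, against 12.1% and 9.29% of all genes at that level. *Casp8* had 35.6 and 53.1 FPKM, a difference of 0.58 (0.49 to 0.66), and *Mmp9* had 3.38 and 1.78 FPKM, a difference of -0.92 (-1.25 to -0.59). *Capn2*, a calpain of the family that trims interleukin 1 alpha, had 139 and 111 FPKM, a difference of -0.33 (-0.37 to -0.28). The sheddase genes *Adam10* and *Adam17*, which release Cx3cl1 and Cxcl16 from the cell surface, had differences of -0.38 and -0.35. *Gsdmd*, which encodes a pore protein that lets interleukin 1 out of cells, had 124 and 167 FPKM, a difference of 0.43 (0.37 to 0.49), while *Casp1* had about 7 and 17 fragments. *Casp4*, *Mmp2* and *Dpp4* had means under 1.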
